A study of Drosophila melanogaster with 16 samples.

Results

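Drosophila nuclear receptors of the stage 11 embryo were followed across 4 groups of arrays. The set was defined by 9 gene symbols, EcR, usp, Hr4, Hr39, Hr78, ftz-f1, tll, svp and Eip75B, and every probe set listed under one of these symbols alone in the platform's annotation was taken, whatever its level. Of the 9 genes 8 had a probe set, among 10844 genes that the array names by a probe set of their own, and together they had 11 of the 14010 probe sets on the array. EcR, Hr4 and svp had 2 probe sets each, and the other 5 genes had 1 each. Eip75B, a heme-binding receptor induced by ecdysone, was not analysed here.

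Transcripts were measured on Affymetrix Drosophila arrays in Drosophila melanogaster embryos at stage 11. Control embryos, described as wild type, were compared with embryos that overexpressed gcm (glial cells missing, also called glide), the transcription factor that starts glial development. RNA came either from whole embryos or from purified cells, which are neuroectodermal cells marked with the membrane fusion protein mCD8-GFP and pulled from dissociated embryos with magnetic beads against mCD8. The labels name the gcm overexpression scagcm and do not spell out what drove it or the mCD8-GFP, and they do not state whether the whole embryos carried mCD8-GFP too.

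Nuclear receptors are transcription factors with a zinc-finger domain that binds DNA and, in most of them, a domain that can bind a small lipid-soluble ligand. In insects the steroid hormone 20-hydroxyecdysone binds a heterodimer of EcR and Usp, which then turns on a cascade of genes, several of which encode further nuclear receptors that time molting and metamorphosis. Other members of the family have no known steroid ligand and pattern the early embryo or the nervous system, where tll acts in the head and brain and svp helps neuroblasts, the neural stem cells, to change the kind of neuron they make.

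Each of the 4 groups had 4 deposited arrays, but replicates 2 and 3 of the sorted gcm cells shared the same value for each of the 14010 probe sets and counted as 1, so that 15 arrays entered the comparisons. The array labelled whole control 3 went against its label. It had a gcm level of 13.10, within the 13.01 to 13.13 of sorted gcm cells, where whole controls 1, 2 and 4 had 8.07 to 8.66. Its level of repo, a glial target of gcm, was 10.77, where those 3 had 6.14 to 6.32. Over all probe sets its mean correlation was 0.931 with the sorted arrays and 0.690 with the other whole embryo arrays. The receptors' comparisons are therefore given from all 15 arrays and again from the 14 arrays without it, and changes of other genes mostly from the 14, with calls from both fits. The trimmed mean of the deposited intensities was 67.1 to 106.2 in sorted controls and 89.6 to 114.3 in sorted gcm cells. It was 117.8 to 166 on whole control arrays 1, 2 and 4 and 114.7 to 128.7 in whole gcm embryos. The array labelled whole control 3 had 83.6.

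Levels are log2 of the quantile-normalized intensity plus 16, so a level under 5, which is an intensity under 16, is near background. Changes are differences of such levels, and they understate the change of dim genes. Levels of different probe sets are not comparable with each other. A probe set was called where its adjusted p was under 0.05 in limma, with Benjamini-Hochberg adjustment over all 13966 probe sets that are not controls. The number of arrays limits the precision, and as the labels do not say whether replicates were separate collections of embryos, a p-value here takes in the scatter among arrays, which may be technical. In these bulk samples a difference in the number of cells that express a gene and a difference in RNA per cell cannot be told apart.

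**Figure D1:**
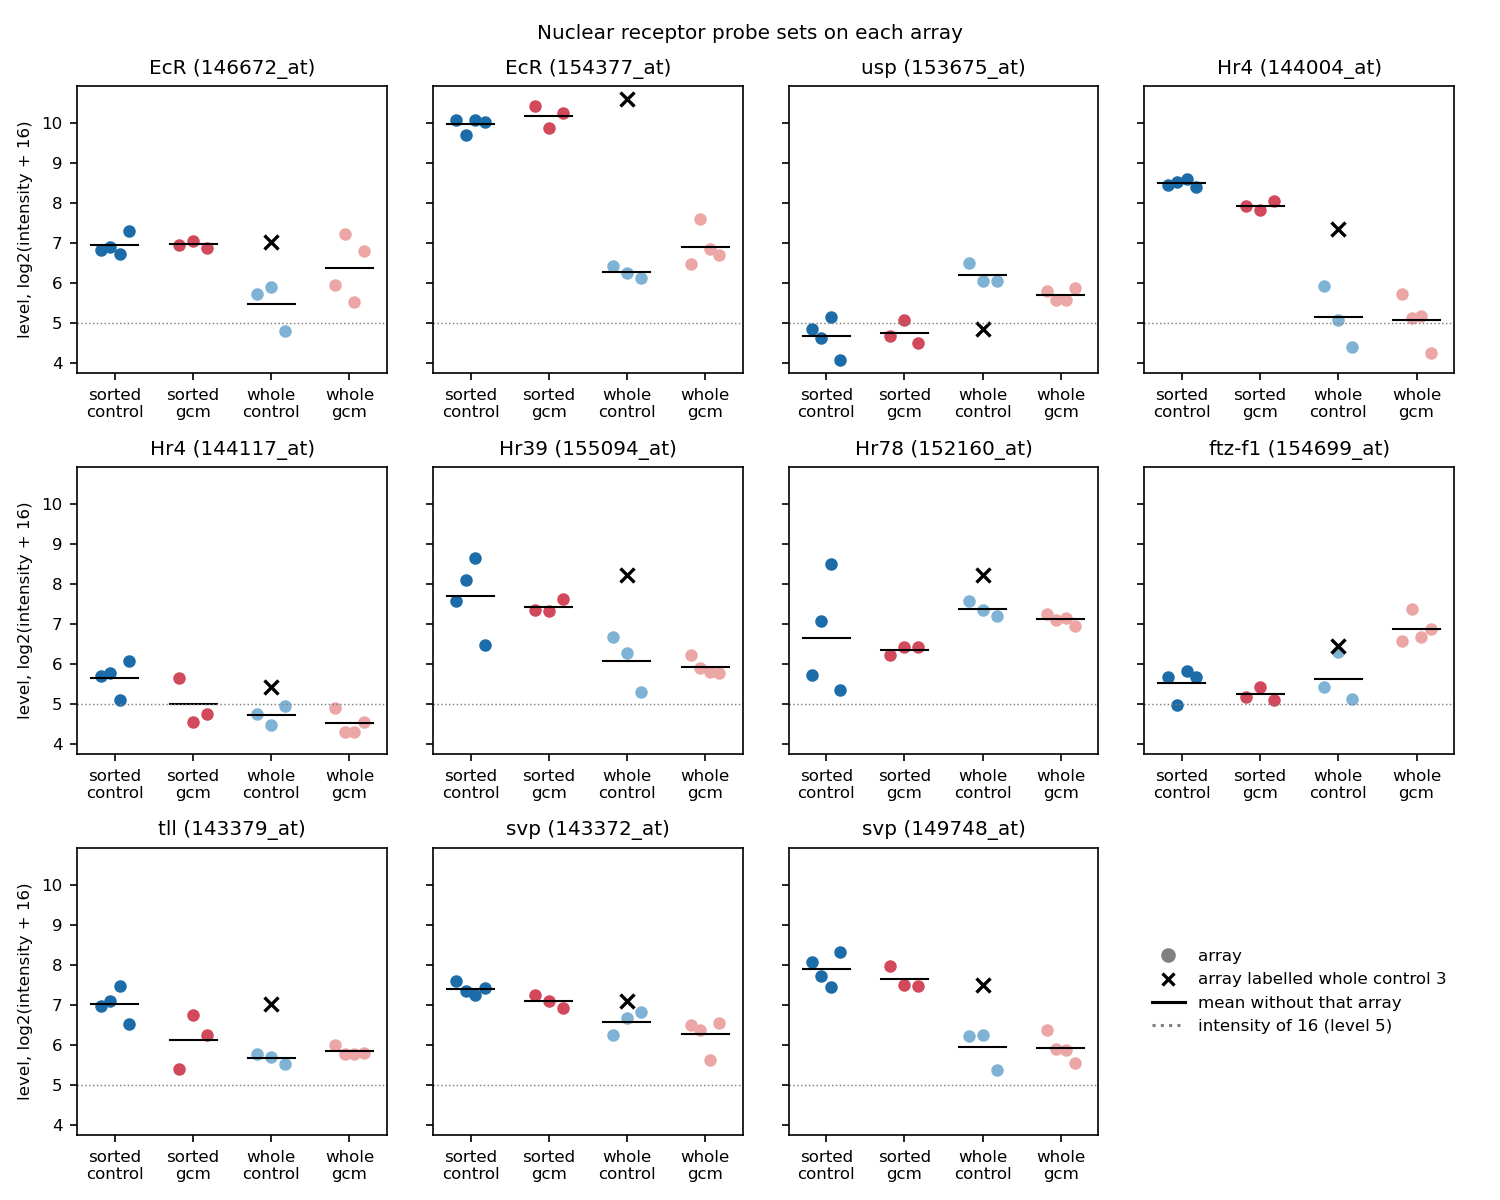
Level of each of the 11 probe sets, as log2 of intensity plus 16, on each of the 15 arrays, with 1 panel per probe set and 1 column per group. Points are arrays, bars are group means without the array labelled whole control 3, and that array is drawn with its own marker. EcR 154377_at lies between 9.70 and 10.43 in sorted cells and between 6.13 and 7.60 in whole embryos, where the array labelled whole control 3 stands at 10.60.

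Most receptors differed between purified cells and whole embryos, and none was called with gcm. In control embryos, 6 of the 11 probe sets were called with 15 arrays, of which 5 were higher and 1 was lower in sorted cells. Over the whole array 26.1% were called, 12.8% higher and 13.3% lower. In the 14 arrays 9 of 11 were called, 8 higher and 1 lower, against 46.4% of all, 24.9% higher and 21.4% lower. The called genes were EcR, Hr4, Hr39, tll and svp, which were higher in sorted cells, and usp, which was lower. Hr39 and the second probe sets of EcR and Hr4 were called only with 14 arrays, while Hr78 and ftz-f1 were called in neither fit. The median change was 1.01 over the 11 probe sets and 0.04 over all probe sets with 15 arrays, and 1.37 and 0.07 with 14 arrays.

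In gcm embryos, 7 of the 11 probe sets were called in both fits, 5 higher and 2 lower in sorted cells, against 36.9% of all probe sets with 15 arrays (19.5% higher, 17.4% lower) and 45.6% with 14 (24.7% higher, 20.9% lower). EcR, Hr4, Hr39 and svp were again higher, and usp and ftz-f1 were lower. The median change was 0.59 over the 11 probe sets with 15 arrays and 0.60 with 14, against 0.06 over all probe sets in both. The sorted and whole groups did not overlap for 8 of the 11 probe sets in gcm embryos, as for 50.7% of all. In controls they did not overlap for 2 of 11 with 15 arrays, as for 11.3% of all, and for 8 of 11 with 14 arrays, as for 47.1%.

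**Figure D2:**
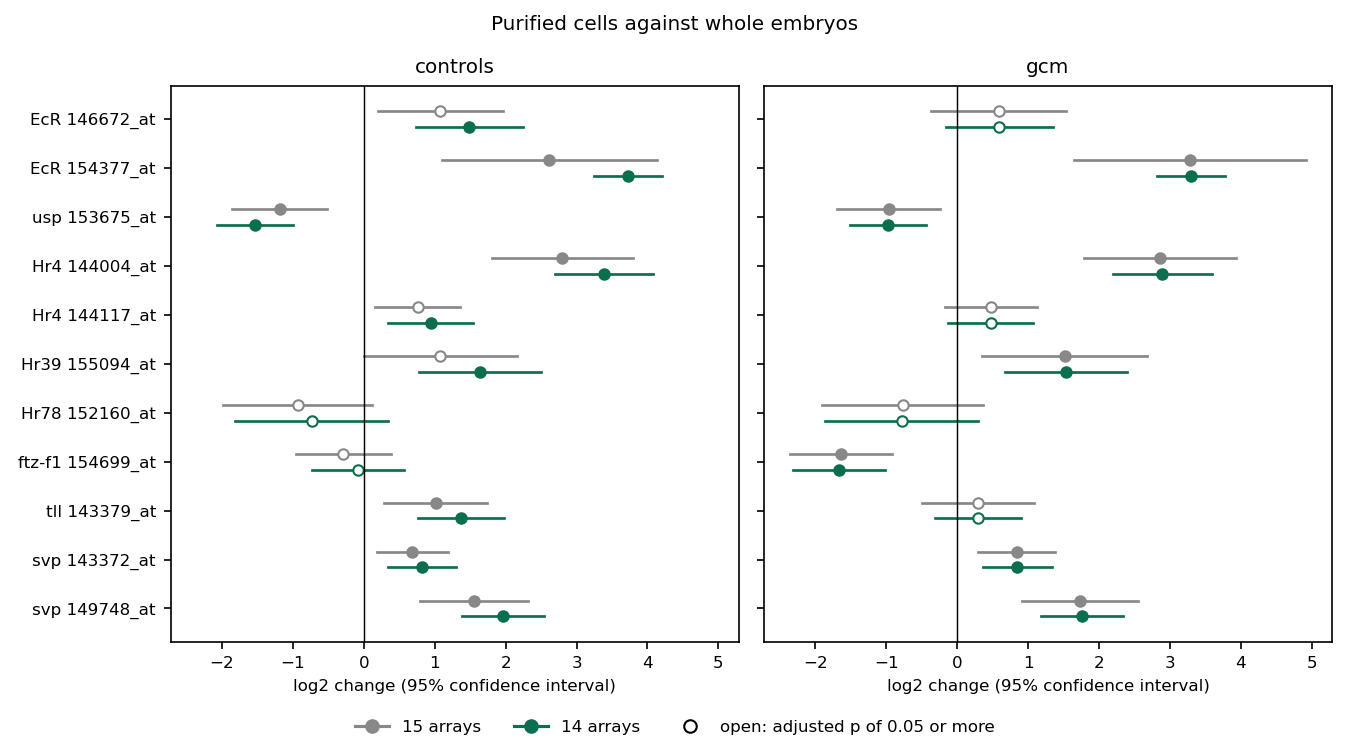
Change from whole embryos to sorted cells for each probe set, in control embryos (left) and in gcm embryos (right), on the log2 scale with 95% confidence intervals. Grey marks the fit with 15 arrays and green the fit with 14, and filled points have an adjusted p under 0.05. In both panels EcR 154377_at and Hr4 144004_at lie farthest to the right, and usp lies to the left of 0.

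EcR encodes the hormone-binding subunit of the ecdysone receptor and lies on chromosome 2R from 6087873 to 6169087, on assembly Release 6, which is used for all positions here. Its probe set 154377_at had levels of 10.09, 9.70, 10.08 and 10.02 on the 4 sorted control arrays and 10.43, 9.88 and 10.26 on the 3 sorted gcm arrays. In whole embryos its level was 6.43, 6.26 and 6.13 on whole control arrays 1, 2 and 4, 10.60 on the array labelled whole control 3, and 6.47, 7.60, 6.85 and 6.71 on the 4 whole gcm arrays. Thus every sorted array was above every whole embryo array except the one labelled whole control 3, which was the highest of all 15. The change from whole to sorted in controls was 2.62 (SE 0.71, limma adjusted p = 0.0162) with 15 arrays and 3.72 (SE 0.23, limma adjusted p = 2.54e-09) with 14, a 13.2-fold difference. In gcm embryos it was 3.28 (SE 0.77, limma adjusted p = 0.00435) with 15 arrays and 3.30 (SE 0.23, limma adjusted p = 1.11e-08) with 14.

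The second EcR probe set, 146672_at, changed less than the first. Its level was 6.84, 6.91, 6.72 and 7.30 in sorted controls and 6.96, 7.06 and 6.88 in sorted gcm cells. It was 5.72, 5.91 and 4.80 on whole control arrays 1, 2 and 4, 7.03 on the array labelled whole control 3, and 5.96, 7.23, 5.53 and 6.80 on the whole gcm arrays. In controls the groups overlapped only through the array labelled whole control 3, and in gcm embryos whole array 2 was above all 3 sorted arrays while the other 3 were below them. In controls the change of 1.08 (SE 0.41, limma adjusted p = 0.0666) with 15 arrays was not called, and the change of 1.49 (SE 0.36, limma adjusted p = 0.00255) with 14 was. In gcm embryos the changes of 0.59 (95% interval -0.36 to 1.54) with 15 arrays and 0.60 (95% interval -0.16 to 1.35) with 14 were not called. Over the 14 arrays the levels of the 2 EcR probe sets had a Pearson correlation of 0.753, a description of arrays that fall into a sorted and a whole cluster.

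The partner subunit moved the other way. The gene usp encodes Ultraspiracle, the fly homolog of the vertebrate retinoid X receptor, and lies on chromosome X from 2038798 to 2042311. Its level was 4.85, 4.64, 5.15 and 4.08 in sorted controls and 4.68, 5.07 and 4.50 in sorted gcm cells. It was 6.49, 6.05 and 6.04 on whole control arrays 1, 2 and 4, 4.87 on the array labelled whole control 3, and 5.81, 5.58, 5.59 and 5.89 on the whole gcm arrays. Most sorted arrays were thus near background, and apart from the array labelled whole control 3 every whole embryo array was above every sorted one. In sorted controls usp fell by 1.19 (SE 0.31, limma adjusted p = 0.0142) with 15 arrays and by 1.53 (SE 0.25, limma adjusted p = 0.000109) with 14. In gcm embryos it fell by 0.97 in both fits (limma adjusted p = 0.0355 with 15 arrays and 0.00492 with 14).

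Hr4 encodes an orphan receptor that is induced by ecdysone and acts in the timing of metamorphosis. It lies on chromosome X from 1941940 to 2007956, and only 30841 bases separate it from usp. Its probe set 144004_at had levels of 8.45, 8.53, 8.62 and 8.40 in sorted controls and 7.92, 7.83 and 8.05 in sorted gcm cells. Its level was 5.93, 5.09 and 4.42 on whole control arrays 1, 2 and 4, 7.36 on the array labelled whole control 3, and 5.72, 5.14, 5.17 and 4.25 on the whole gcm arrays. Sorted and whole groups did not overlap, whether or not that array was kept. In controls the change was 2.80 (SE 0.47, limma adjusted p = 0.00386) with 15 arrays and 3.39 (SE 0.33, limma adjusted p = 3.81e-07) with 14. In gcm embryos it was 2.86 (SE 0.50, limma adjusted p = 0.00109) and 2.90 (SE 0.33, limma adjusted p = 2.19e-06).

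The dimmer Hr4 probe set, 144117_at, had levels of 5.10 to 6.07 in sorted controls, 4.56 to 5.67 in sorted gcm cells, 4.47 to 4.97 on whole control arrays 1, 2 and 4, 5.42 on the array labelled whole control 3, and 4.29 to 4.91 in whole gcm embryos. Its change in controls was 0.76 (SE 0.28, limma adjusted p = 0.0579) with 15 arrays and 0.94 (SE 0.28, limma adjusted p = 0.0118) with 14. The call was lost when whole control array 2 was left out as well. In gcm embryos the changes of 0.47 (95% interval -0.17 to 1.12) with 15 arrays and 0.48 (95% interval -0.12 to 1.07) with 14 were not called. The levels of the 2 Hr4 probe sets had a Pearson correlation of 0.700 over the 14 arrays, and those of svp 0.803, again across a sorted and a whole cluster.

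Hr39 and Hr78 are further receptors tied to the ecdysone response, and Hr39 is the closest relative of ftz-f1. Hr39 lies on chromosome 2L from 21237250 to 21259675. Its level was 7.57, 8.12, 8.66 and 6.48 in sorted controls and 7.35, 7.33 and 7.64 in sorted gcm cells. It was 6.68, 6.29 and 5.29 on whole control arrays 1, 2 and 4, 8.23 on the array labelled whole control 3, and 6.22, 5.90, 5.80 and 5.77 on the whole gcm arrays. In gcm embryos the groups did not overlap, and in controls sorted control 4 was below whole control 1. The change in controls was 1.08 (SE 0.51, limma adjusted p = 0.128) with 15 arrays and 1.63 (SE 0.41, limma adjusted p = 0.00336) with 14. In gcm embryos it was 1.52 (SE 0.55, limma adjusted p = 0.0409) with 15 arrays and 1.54 (SE 0.41, limma adjusted p = 0.00528) with 14.

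Hr78, at 21494019 to 21497494 on chromosome 3L, is needed for growth of the larval tracheae. Its level was 5.73, 7.07, 8.50 and 5.36 in sorted controls, the widest spread of the 11 probe sets within that group. It was 6.22, 6.42 and 6.42 in sorted gcm cells, 7.58, 7.36 and 7.20 on whole control arrays 1, 2 and 4, 8.24 on the array labelled whole control 3, and 7.26, 7.11, 7.16 and 6.94 in whole gcm embryos. All sorted gcm arrays were below all whole gcm arrays, whereas in controls sorted control 3 was above every whole embryo array. In controls the change was -0.93 (95% interval -1.98 to 0.12) with 15 arrays and -0.73 (95% interval -1.81 to 0.35) with 14. In gcm embryos it was -0.77 (95% interval -1.90 to 0.37) and -0.78 (95% interval -1.86 to 0.30), and none of the 4 was called. In controls Hr78 was called lower in sorted cells when sorted control 3 was left out, with a change of -1.54 (limma adjusted p = 0.0174) with the array labelled whole control 3 kept and -1.35 (limma adjusted p = 0.00336) with it left out as well. In gcm embryos that second fit called it too (limma adjusted p = 0.0492), at an almost equal change of -0.78. Sorted control 3 is not part of that comparison and enters it only through the joint normalization and the shared estimate of the spread.

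Sorted control arrays 3 and 4 pulled several probe sets apart. Of the 4 sorted control arrays, Hr39, Hr78, tll, usp and the first Hr4 probe set were each highest on array 3 and lowest on array 4. The second EcR probe set, the second Hr4 probe set and svp 149748_at were highest on array 4 and lowest on array 3. The Hr4 probe sets thus went opposite ways. The trimmed mean intensity was 106 on array 3, the highest of the 4, and 67.1 on array 4, the lowest, and its part in these values was not tested.

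**Figure D3:**
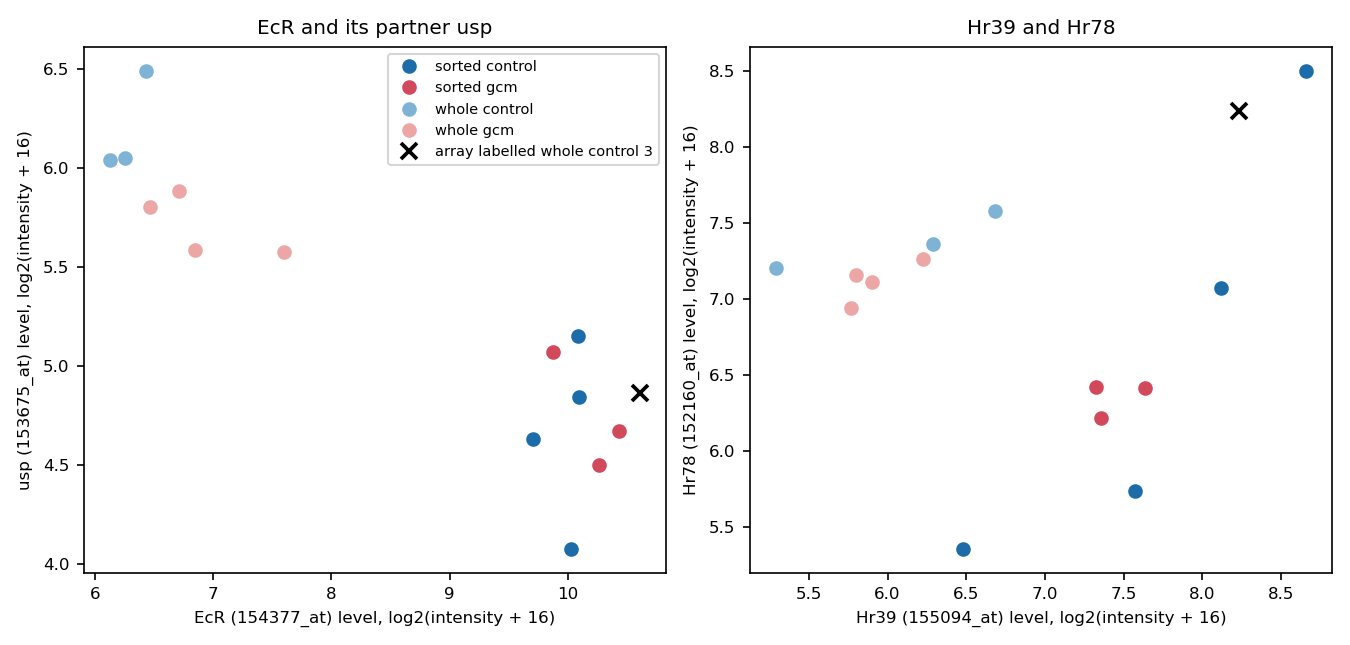
Levels of usp against EcR 154377_at (left) and of Hr78 against Hr39 (right), as log2 of intensity plus 16, with 1 point per array, colors for the 4 groups and a cross for the array labelled whole control 3. On the left all sorted arrays lie at high EcR and low usp and the cross lies beside them, and on the right sorted control arrays 3 and 4 are the highest and the lowest points, with Hr78 at 8.50 and 5.36.

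The gene ftz-f1 encodes the receptor that partners the homeodomain protein Fushi tarazu in segmentation and is used again in molting, and it lies on chromosome 3L from 18750607 to 18801309. Its level was 5.68, 4.97, 5.82 and 5.68 in sorted controls and 5.19, 5.43 and 5.11 in sorted gcm cells. It was 5.43, 6.31 and 5.12 on whole control arrays 1, 2 and 4, 6.45 on the array labelled whole control 3, and 6.59, 7.39, 6.67 and 6.87 in whole gcm embryos. Whole gcm arrays were thus above all other arrays, and the other 3 groups overlapped. In gcm embryos ftz-f1 was lower in sorted than in whole, by a change of -1.63 (SE 0.34, limma adjusted p = 0.00224) with 15 arrays and -1.66 (SE 0.30, limma adjusted p = 0.000291) with 14. In controls the change was -0.29 (95% interval -0.96 to 0.38) and -0.08 (95% interval -0.73 to 0.56).

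The receptors of embryonic patterning, tll and svp, were higher in sorted cells of controls. The gene tll, at 30852315 to 30854400 on chromosome 3R, encodes Tailless, a repressor that specifies the ends of the embryo and later the brain. Its level was 6.99, 7.10, 7.48 and 6.52 in sorted controls and 5.41, 6.75 and 6.26 in sorted gcm cells. It was 5.79, 5.70 and 5.53 on whole control arrays 1, 2 and 4, 7.02 on the array labelled whole control 3, and 6.01, 5.78, 5.78 and 5.82 in whole gcm embryos. In controls the sorted arrays overlapped with the whole embryo arrays only through the one labelled whole control 3, and in gcm embryos sorted gcm 1 was below every whole array. The change in controls was 1.01 (SE 0.34, limma adjusted p = 0.0418) with 15 arrays and 1.37 (SE 0.29, limma adjusted p = 0.000911) with 14. In gcm embryos the changes of 0.29 (95% interval -0.50 to 1.08) with 15 arrays and 0.30 (95% interval -0.31 to 0.91) with 14 were not called.

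The gene svp encodes Seven-up, the fly homolog of the vertebrate COUP transcription factors, and lies on chromosome 3R from 12258737 to 12302785. Its probe set 149748_at had levels of 8.08, 7.74, 7.45 and 8.32 in sorted controls and 7.99, 7.51 and 7.48 in sorted gcm cells. Its level was 6.23, 6.26 and 5.38 on whole control arrays 1, 2 and 4, 7.50 on the array labelled whole control 3, and 6.38, 5.90, 5.87 and 5.54 in whole gcm embryos. Sorted and whole arrays did not overlap apart from the array labelled whole control 3. The change in controls was 1.55 (SE 0.36, limma adjusted p = 0.00846) with 15 arrays and 1.96 (SE 0.27, limma adjusted p = 1.85e-05) with 14. In gcm embryos it was 1.73 (SE 0.39, limma adjusted p = 0.00319) and 1.76 (SE 0.27, limma adjusted p = 5.84e-05).

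The other svp probe set, 143372_at, had levels of 7.24 to 7.60 in sorted controls, 6.94 to 7.26 in sorted gcm cells, 6.26 to 6.83 on whole control arrays 1, 2 and 4, 7.09 on the array labelled whole control 3, and 5.63 to 6.56 in whole gcm embryos. Here too no whole embryo array reached the sorted arrays of the same genotype, and the change was smaller, at 0.82 (SE 0.23, limma adjusted p = 0.00717) in controls and 0.85 (SE 0.23, limma adjusted p = 0.00566) in gcm embryos with 14 arrays. With 15 arrays it was 0.69 (limma adjusted p = 0.0443) and 0.84 (limma adjusted p = 0.018). With 14 arrays both calls were lost on the values as deposited.

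Several measures moved with purification, and their part in the receptors' changes was not tested. The summed intensity of 10 neuroectoderm and neuroblast markers was 11137 to 13644 in sorted controls and 2240 to 3233 in whole controls other than the array labelled whole control 3. Bright probe sets weigh most in such sums. The median change of the 10 in controls was 0.52 with 15 arrays and 0.65 with 14. In both fits 5 were called higher and 3 lower. Of all probe sets 12.8% were called higher and 13.3% lower with 15 arrays, and 24.9% and 21.4% with 14. The proneural gene ac was under an intensity of 16 on every sorted array, and SoxN, l(1)sc and ac were called lower in sorted controls in both fits. The sum of 6 neuron markers was 4489 to 7536 against 374 to 908, and that of 4 tracheal markers was 3316 to 3883 against 416 to 666. The 5 glial markers summed to 3626 to 5740 against 587 to 885. With 14 arrays all 5 were called higher in controls, and with 15 none was. For 7 endoderm, yolk and amnioserosa markers the sums were 1439 to 1831 against 1215 to 1533. For 6 hemocyte and fat body markers they were 544 to 2464 against 408 to 672. For 7 germ cell and maternal markers they were 424 to 505 against 445 to 597. Sums of 3 mesoderm and muscle markers, of 6 listed, were alike, at 398 to 501 and 396 to 457. Of these 3, twi was called higher in sorted controls with 14 arrays, as were 24.9% of all probe sets, and 2 were not called. With 15 arrays none of the 3 was called in controls. In gcm embryos twi was called higher in both fits. Actin probe sets at the 3′ end exceeded those at the 5′ end by 1.59 to 2.19 on the log2 scale in sorted arrays and by 0.49 to 1.21 in whole embryo arrays, with 1.85 on the array labelled whole control 3. The same measure for eIF-4a did not separate the preparations, at 0.89 to 1.20 in sorted arrays and 0.86 to 1.25 in whole embryo arrays. Trimmed mean intensity before normalization, given above, was lower on every sorted array than on every whole embryo array except the one labelled whole control 3.

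Gene length also moved with purification. Over 12390 probe sets, change and genomic length had a Spearman correlation of 0.342 in controls and 0.305 in gcm embryos with 14 arrays, a description across probe sets that share the arrays. With 15 arrays the correlations were 0.343 and 0.304. In genes of 20000 bases or more, 22.8% of probe sets were called higher in sorted controls and 2.4% lower with 15 arrays, and 39.1% and 6.06% with 14. In genes under 5000 bases these shares were 8.06% and 17.2% with 15 arrays and 18.1% and 27.6% with 14. Of the 11 receptor probe sets, 8 belong to genes of the long class (EcR, Hr4, Hr39, svp and ftz-f1) and 4 of these 8 were called higher with 15 arrays and 7 with 14. The other 3 belong to usp, Hr78 and tll, which are all under 5000 bases, and there 1 was called higher and 1 lower in both fits.

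Overexpression of gcm changed none of the 11 probe sets past the threshold in sorted cells. With limma 0.122% of all probe sets were called with 15 arrays and 0.773% with 14. At an unadjusted p under 0.05 there were 2 receptor probe sets in either fit, among 776 of all probe sets with 15 arrays and 1482 with 14. These were tll, with a change of -0.89 (95% interval -1.50 to -0.28, limma adjusted p = 0.214) in the 14 arrays, and Hr4 144117_at, with -0.68 (95% interval -1.28 to -0.08, limma adjusted p = 0.391). With 15 arrays they were -0.88 (limma adjusted p = 0.777) and -0.67 (limma adjusted p = 0.861). The brighter Hr4 probe set was the 1 of 11 whose groups did not overlap, as for 9.09% of all, with every sorted gcm array below every sorted control array and a change of -0.57 (95% interval -1.26 to 0.13, limma adjusted p = 0.596) in the 14 arrays. The change was negative in 8 of the 11, with a median of -0.30 against -0.01 over all probe sets. For EcR 154377_at the interval with 14 arrays was -0.26 to 0.70 and for usp -0.47 to 0.61.

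**Figure D4:**
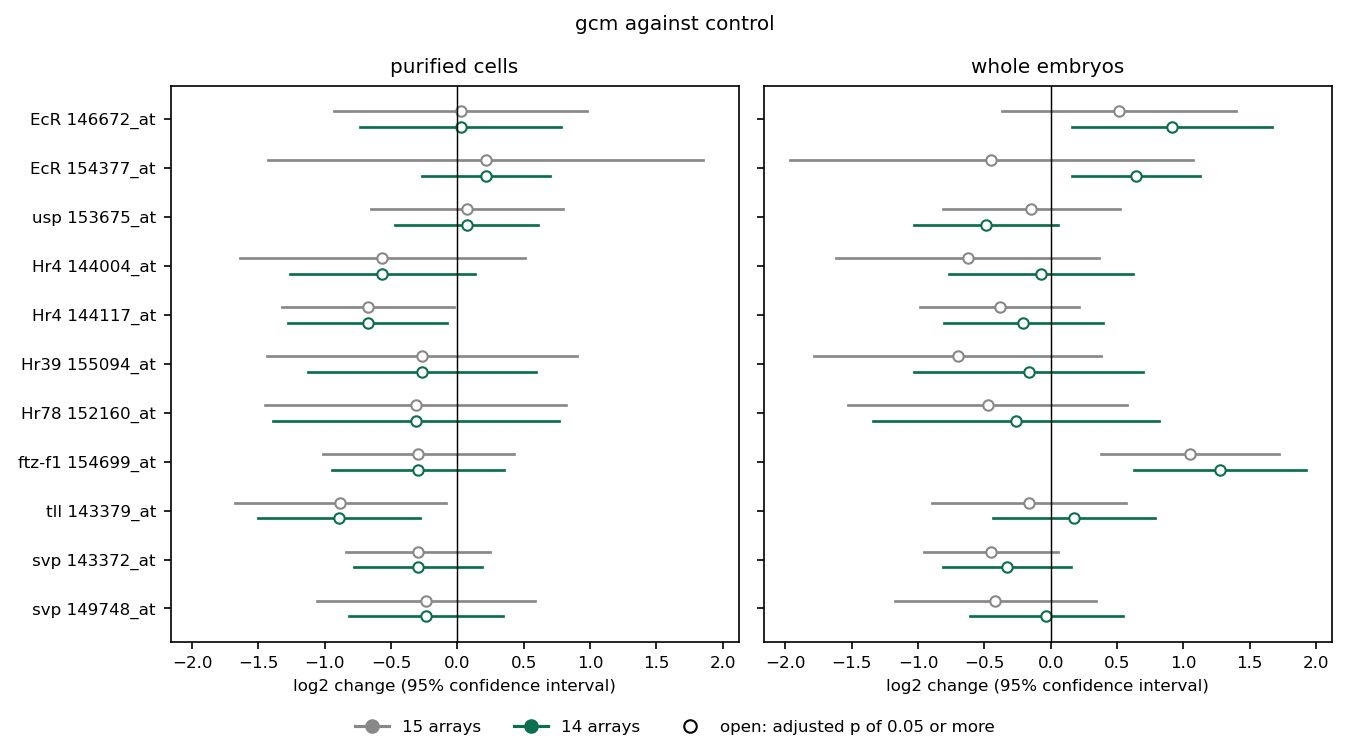
Change from control to gcm for each probe set in sorted cells (left) and in whole embryos (right), on the log2 scale with 95% confidence intervals, in grey for 15 arrays and in green for 14. All points are open, since no adjusted p was under 0.05. The change of ftz-f1 in whole embryos is 1.05 with 15 arrays and 1.28 with 14, and that of EcR 154377_at is -0.45 and 0.64.

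In whole embryos, too, limma called none of the 11 probe sets, against 0.0573% of all probe sets with 15 arrays and 0.444% with 14. The receptor with the smallest p was ftz-f1, whose levels were given above. All 4 whole gcm arrays were above all whole control arrays in both fits. The change was 1.05 (95% interval 0.38 to 1.72, limma adjusted p = 0.185) with 15 arrays and 1.28 (95% interval 0.63 to 1.92, limma adjusted p = 0.072) with 14. Across 21 alternatives without the array labelled whole control 3, it ran from 0.77 to 1.66 and was called in 5. At an unadjusted p under 0.05 there was 1 receptor probe set with 15 arrays, among 1560 of all, and 3 with 14, among 1622.

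The other 2 of these 3 probe sets were those of EcR, and their values turned on the array labelled whole control 3. For 154377_at the change with gcm was -0.45 (limma adjusted p = 0.833) with that array and 0.64 (95% interval 0.16 to 1.12, limma adjusted p = 0.224) without it. For 146672_at it was 0.52 (limma adjusted p = 0.662) and 0.92 (95% interval 0.16 to 1.67, limma adjusted p = 0.293). Without that array the whole control and whole gcm arrays did not overlap for EcR 154377_at, usp and ftz-f1, 3 of 11, as for 12.3% of all. With it only ftz-f1 remained, 1 of 11, as for 6.03% of all. The usp change was -0.49 (95% interval -1.03 to 0.05, limma adjusted p = 0.499) with 14 arrays and -0.15 (limma adjusted p = 0.886) with 15. Maternal transcripts moved in the same embryos: of 7 germ cell and maternal genes measured, bcd, tor and twe were called higher in whole gcm embryos with 14 arrays, and tor and twe with 15. Over all probe sets 0.444% were called in either direction with 14 arrays and 0.0573% with 15. The summed intensity of the 7 was 723 to 1197 in whole gcm arrays, 445 to 597 on whole control arrays 1, 2 and 4, and 471 on the array labelled whole control 3, and its part in the change of ftz-f1 was not tested.

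The effect of gcm in sorted cells minus that in whole embryos was called for none of the 11 probe sets in either fit, against 0.00716% of all probe sets with 15 arrays and 0.0286% with 14. For ftz-f1 the difference was -1.34 (limma adjusted p = 0.6) with 15 arrays and -1.58 (95% interval -2.49 to -0.66, limma adjusted p = 0.225) with 14. For tll it was -0.72 (limma adjusted p = 0.904) and -1.07 (95% interval -1.93 to -0.21, limma adjusted p = 0.338). At an unadjusted p under 0.05 there was ftz-f1 with 15 arrays, among 877 of all probe sets, and ftz-f1 and tll with 14, among 1468.

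Ordered by group mean in the 14 arrays, Hr4, Hr39 and svp ran from whole gcm through whole control and sorted gcm to sorted control. The step from whole control to sorted gcm was free of overlap for Hr4 144004_at, Hr39 and both svp probe sets, and Hr4 144004_at alone of these also showed none between sorted gcm and sorted control. Both EcR probe sets ran from whole control through whole gcm and sorted control to sorted gcm. The sorted groups overlapped for both, and the lower steps did so for 146672_at and not for 154377_at. For tll the order was whole control, whole gcm, sorted gcm and sorted control, with overlap between all neighbors. For usp it was sorted control, sorted gcm, whole gcm and whole control, with overlap only between the 2 sorted groups. Hr78 ran from sorted gcm through sorted control and whole gcm to whole control, with overlap at each step. For ftz-f1 it was sorted gcm, sorted control, whole control and whole gcm, with no overlap at the last step.

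Among 12 other nuclear receptors with a probe set, 5 were called higher in sorted cells (Hr3, Hr96, ERR, kni and knrl) and 1 was called lower (Hnf4), in controls and in gcm embryos and in both fits. Over all probe sets 26.1% were called in controls with 15 arrays and 46.4% with 14, and 36.9% and 45.6% in gcm embryos, so with 14 arrays the share called among these 12 was near that of the whole array. The median change of these 12 in controls was 0.39 with 14 arrays. Of the 6 called, the largest change was that of kni, a gap gene that encodes a receptor-like protein without a ligand-binding domain, at 3.13 (limma adjusted p = 1.17e-09) in controls with 14 arrays and 2.40 (limma adjusted p = 0.00665) with 15. Its relative knrl changed by 2.04 (limma adjusted p = 7.81e-08) with 14 arrays, Hr3 by 1.29 (limma adjusted p = 3.99e-05) and Hr96, a receptor that controls responses to dietary lipids and toxins, by 1.65 (limma adjusted p = 6.75e-05). Hnf4, a receptor of fat metabolism and the gut, fell by 1.37 (limma adjusted p = 0.000168). With gcm in sorted cells kni changed by -1.05, and this was called with 14 arrays (limma adjusted p = 0.00689) and not with 15 (limma adjusted p = 0.914). None of the 12 was called with gcm in whole embryos by limma in either fit, and 5 had an unadjusted p under 0.05 with 15 arrays and 2 with 14.

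Of 8 genes for the synthesis, uptake and turnover of ecdysone, 4 were called higher in sorted controls in both fits, as were 12.8% of all probe sets with 15 arrays and 24.9% with 14. These were Oatp74D, which encodes the ecdysone importer, with a change of 1.96 (limma adjusted p = 1.19e-07) in the 14 arrays, Npc1a, for sterol transport in the cell, with 1.99 (limma adjusted p = 2.67e-07), woc with 0.95 (limma adjusted p = 0.0036), and shd, for the enzyme that makes 20-hydroxyecdysone, with 1.28 (limma adjusted p = 0.000475). The synthetic enzyme gene dib was lower, at -1.25 (limma adjusted p = 0.000998) with 14 arrays and -0.80 (limma adjusted p = 0.121) with 15. In gcm embryos Oatp74D, Npc1a and woc were called higher in both fits, while shd changed by 0.62 (limma adjusted p = 0.0541) with 14 arrays. Over all probe sets 19.5% were called higher there with 15 arrays and 24.7% with 14. In these embryos dib was called lower with 14 arrays, as were 20.9% of all, and not with 15. Limma called none of the 8 with gcm in either preparation. In sorted cells 3 had an unadjusted p under 0.05 in both fits, and in whole embryos 3 did with 15 arrays and 2 with 14.

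Of 9 ecdysone response genes, most were not called. In controls 1 was higher and 1 lower with 15 arrays, and 2 and 1 with 14, where 46.4% of all probe sets were called either way. ImpL2, whose product binds insulin-like peptides, was higher in sorted controls, with a change of 1.53 (limma adjusted p = 1.84e-05) in the 14 arrays, and in sorted gcm cells, with 1.69 (limma adjusted p = 6.82e-06). Cth, known before as Eip55E, encodes cystathionine gamma-lyase and was lower, at -1.65 (limma adjusted p = 3.4e-07) and -1.70 (limma adjusted p = 2.61e-07). ImpE1 was called lower in gcm embryos alone, at -0.61 (limma adjusted p = 0.0292) with 14 arrays, and Eip63E higher in controls with 14 arrays alone, at 0.59 (limma adjusted p = 0.0426). With gcm limma called none of the 9. In sorted cells 0 had an unadjusted p under 0.05 with 15 arrays and 1 with 14, and in whole embryos 1 and 2 did.

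Cofactors went both ways with purification. Of 9 measured, 4 were called higher in sorted cells of controls and of gcm embryos in both fits. Over all probe sets 12.8% were called higher in controls with 15 arrays and 24.9% with 14, and 19.5% and 24.7% in gcm embryos. Called lower were 1 of the 9 in controls and 2 in gcm embryos, in both fits. The shares of all called lower were 13.3% and 21.4% in controls and 17.4% and 20.9% in gcm embryos. With 14 arrays 5 of the 9 were called either way in controls, close to the 46.4% of all probe sets. The 4 were Smr, which encodes a corepressor of EcR, with a change of 2.60 (limma adjusted p = 5.31e-07) in controls with 14 arrays, gro, for the corepressor Groucho, with 1.96 (limma adjusted p = 2.18e-06), Gug, for the corepressor Atrophin, with 1.97 (limma adjusted p = 1.37e-05), and ftz, the partner of ftz-f1, with 1.52 (limma adjusted p = 4.66e-05). The gene trr, for a histone methyltransferase that acts with EcR, was lower, at -1.98 (limma adjusted p = 2.46e-05) in controls. The EcR cofactor gene rig was called lower in gcm embryos, at -1.57 (limma adjusted p = 0.000204), and changed by -0.59 (limma adjusted p = 0.0933) in controls. With gcm limma called none of the 9 cofactor genes, and 1 in sorted cells and 3 in whole embryos had an unadjusted p under 0.05 in both fits.

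The genes whose levels over the 15 arrays were most like a receptor's were taken from about 4580 probe sets with a highest mean level of at least 7. For EcR 154377_at they were CG1637, rgr and Non1, each with a Pearson correlation of 0.98. Hr4 144004_at was closest to tna, at 0.99, and svp 149748_at to ZAP3, at 0.99. Hr39 was closest to Cul3, at 0.98, usp to pasi1, at 0.95, Hr78 to Nrx-IV, at 0.94, tll to CG9121, at 0.93, and ftz-f1 to CG2924, at 0.91. These correlations describe arrays that fall into a sorted and a whole cluster. In the 14 arrays the closest gene was the same for Hr4, Hr39, Hr78, tll and ftz-f1, and another for EcR, usp and svp.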

How the data were processed

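The deposited values are linear intensities, 1 for each probe set on each array. Software, scaling and background steps of the authors are not given in the sources used here. Groups came from the sample titles. All 15 distinct arrays were quantile normalized together and log2(intensity + 16) was compared with limma 3.58.1 in R 4.3.3, as 1 mean per group with an intensity trend, and again without the array labelled whole control 3 (14 arrays). The 44 control probe sets were left out. P-values were two-sided, adjusted over 13966 probe sets. Positions and lengths came from assembly Release 6 of RefSeq, matched by gene symbol. The pipeline was tested on simulated data.

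The members, lists and tests were chosen with earlier results of these data known. Named genes were all members, and of each list the called genes, or, where over 4 were called, the 4 with the smallest p in a comparison. ERR, hkb, pdm2 and cas are named outside this rule, chosen after their values were seen. For likeness, the highest Pearson correlations with a member's brightest probe set were taken. No sequence is shown.

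Alternatives were a pseudocount of 1 or 64, no normalization, median centring, leaving out the dimmest 40% of probe sets, a block for replicate number, and leaving out single arrays. Equal replicate numbers were checked by correlating residuals of all probe sets. Only for whole control against whole gcm without the array labelled whole control 3 did every pair with the same number exceed 0.1. These 3 pairs had 0.202 to 0.343, and pairs with different numbers there had -0.287 to 0.290. By that limit the numbers would count as pairing there, though the ranges overlap and so do not settle it. The main fits hold no block, so the gcm changes in whole embryos come from unpaired fits. Fits with a block, given further below, hold 1 term per replicate number shared by all 4 groups. No fit paired the whole embryo arrays alone. Comparisons that share a group are given side by side only.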

Additional observations from a re-analysis of the deposited data

Results flagged for a closer look

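In 33 groups of 4 arrays, 11 probe sets in 3 groups each, the highest and the lowest array were set against the others, and chance sets about 1 in 20 groups apart. In the whole control group EcR 154377_at was 10.60 on the array labelled whole control 3, against 6.13 to 6.43 on the other 3. In the sorted control group ftz-f1 was 4.97 on array 2, against 5.68 to 5.82 on the others. In the whole gcm group tll was 6.01 on array 1, against 5.78 to 5.82 on the others.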

How the results depend on the processing

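Of 11 receptor probe sets, the number called in controls between sorted cells and whole embryos was 6 with 15 arrays, and leaving out arrays moved it between 2 and 10. It was 2 without whole control 1, 3 without whole control 2 or 4, 9 without the array labelled whole control 3, and 10 without that array and sorted control 3. With 15 arrays the count in controls was 4 with values as deposited and 6 with median centring. With 14 arrays it was 6 and 8, against 9 with quantile normalization. In gcm embryos 7 were called. With 15 arrays the count there was 4 with values as deposited and 4 with median centring, and with 14 it was 6 and 7. Leaving out arrays gave 4 to 8 in gcm embryos, with 4 without sorted gcm 1 or whole gcm 3. With gcm in whole embryos none was called with 15 arrays. Without the array labelled whole control 3 there was 1, ftz-f1, under a pseudocount of 64, median centring or the dimmest 40% left out, and leaving out arrays gave 0 to 1. With gcm in sorted cells, and for the difference of the effect, the count was 0 under all alternatives run. No called change turned its sign under any alternative run, while some changes that were not called did. With the replicate number as a block, the called probe sets were 5 in controls and 6 or 7 in gcm embryos with 15 arrays, and 9 and 7 with 14. For ftz-f1 in whole embryos with 14 arrays the block gave adjusted p = 0.123 or 0.106, by whether the array deposited under 2 numbers counted as number 2 or 3, so it changed no call there. As sorted and whole arrays share this block, it does not test a pairing of whole embryo arrays alone. With 14 arrays in controls, svp 143372_at lost its call as deposited and with median centring, and EcR 146672_at and Hr39 lost theirs as deposited. The median of all probe sets in controls moved by -0.22 as deposited and by 0.20 with median centring, while 8 of 11 receptor changes were positive under each scaling. Leaving out the dimmest 40% removed Hr4 144117_at and usp. Dim signal limits usp, near background on most sorted arrays, and Hr4 144117_at, near background in whole embryos apart from the array labelled whole control 3.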

Other observations

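Of 11 genes that act with tll or svp in the terminal system or in the temporal series of neuroblasts, 4 were called higher and 2 lower in sorted controls with 14 arrays, a share near the 46.4% of all probe sets called in that fit. The temporal factors hb and nub changed by 1.39 (limma adjusted p = 2.46e-05) and 1.85 (limma adjusted p = 1.62e-06), cic, a repressor relieved by terminal signaling, by 1.44 (limma adjusted p = 0.00126), and pdm2 by 0.56 (limma adjusted p = 0.0497). The late temporal factor grh was lower, at -1.47 (limma adjusted p = 0.000384), and so was tor, the maternal receptor of the terminal system, at -1.31 (limma adjusted p = 0.00132). With 15 arrays hb, nub and cic were called and the other 3 were not. In gcm embryos with 14 arrays hkb, hb, nub and pdm2 were called higher and tor, cas and grh lower. For the whole array the shares in that fit were 24.7% higher and 20.9% lower. With 15 arrays nub was called higher and tor lower, beside shares of 19.5% and 17.4% for the whole array.

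With gcm in whole embryos tor was higher, by a change of 2.12 (limma adjusted p = 0.0443) with 15 arrays and 1.76 (limma adjusted p = 0.0147) with 14. With gcm in sorted cells nub was lower, at -0.98 in both fits, and this was called with 14 arrays (limma adjusted p = 0.0345) and not with 15 (limma adjusted p = 0.366). For cas, the next factor of the series, the change in sorted cells was -0.99 with 14 arrays and was not called (limma adjusted p = 0.37).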
